A study of Aspergillus nidulans with 2 samples.

Results

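The genes described here encode enzymes of carbon metabolism in the filamentous fungus Aspergillus nidulans (Emericella nidulans): treA (trehalase), acuF (phosphoenolpyruvate carboxykinase), fbp1 (fructose-1,6-bisphosphatase), gpdA (glyceraldehyde-3-phosphate dehydrogenase) and tktA (transketolase). They were taken by symbol from the platform annotation and are 5 of the 2064 genes named on the array. Of 3533 probes, 7 belonged to them. Of these 7 probes, 5 had a ratio on both arrays and 2, a further probe each of acuF and tktA, had a ratio on the flip array alone. The genes were proposed with their ratios in these arrays already known: they were chosen by those log2 ratios on the flip and flop arrays. Their ratios are therefore given as a description, with no test.

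Menadione-exposed mycelium of strain FGSC 26 was compared with untreated mycelium of the same strain. Menadione is a redox-cycling quinone that generates superoxide inside cells. All cultures were grown for 18 h at 37 °C in minimal-nitrate medium (pH 6.5, 0.5% yeast extract added) and then moved to fresh minimal-nitrate medium for 6 h. The exposed cultures received 0.8 mM menadione as its sodium bisulfite compound during those 6 h, and the control cultures went through the same transfer without it. RNA of both kinds of culture was hybridised together on 2-colour cDNA arrays, with menadione RNA in Cy5 on the array called flip and in Cy3 on the array called flop. Whether separate cultures stood behind the 2 arrays is not in the labels, and the spread between them may be technical. The p-values given below for other genes may then measure technical spread and not variation between cultures.

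The deposited values state neither the direction of the ratio nor the base of the logarithm. Menadione RNA is the first channel of both samples and the design sets exposed against untreated cultures, so menadione over untreated is the likely direction, in which a positive value means more transcript in exposed mycelium. If instead both columns held red over green, the flop column would run the other way. Values are read as log2. The flip array held 3049 ratios and the flop array 2267, with medians of 0.01 and 0.10 and SDs of 0.965 and 1.16. Over the 2265 probes with both values the columns correlated with a Pearson r of 0.844, given as a description. If both columns were red over green, a shared dye effect could produce such a correlation, whereas in the direction adopted here it would enter the columns with opposite signs. A bulk ratio cannot tell fewer cells of a kind from less RNA per cell.

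Gluconeogenesis builds hexose phosphate from oxaloacetate. Phosphoenolpyruvate carboxykinase opens the route and fructose-1,6-bisphosphatase acts near its end, and both steps bypass glycolytic reactions that run only towards pyruvate. Glyceraldehyde-3-phosphate dehydrogenase lies between them and works in either direction, so it serves glycolysis and gluconeogenesis alike. Trehalase splits the storage sugar trehalose into glucose. Transketolase belongs to the non-oxidative branch of the pentose phosphate pathway, whose oxidative branch supplies NADPH, the reductant used by glutathione and thioredoxin reductases.

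For each of the 5 genes, the probe measured on both arrays had a positive ratio on both. The 2-array means ran from 0.82 for tktA to 3.19 for treA, with a median of 1.85. Of these 5 probes, 4 were at least 2-fold higher on both arrays (a log2 ratio of at least 1), those of treA, acuF, fbp1 and gpdA. Among all 2265 probes with both values, 200 (8.83%) were at least 2-fold higher on both arrays, and 969 (42.8%) were positive on both. Since these ratios led to the choice of the genes, nothing is read from the comparison of the shares. The probe farthest inside the 2-fold limit on its lower array was that of acuF at 2.71, the nearest inside was that of gpdA at 1.30, and the probe outside was that of tktA at 0.78.

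**Figure D1:**
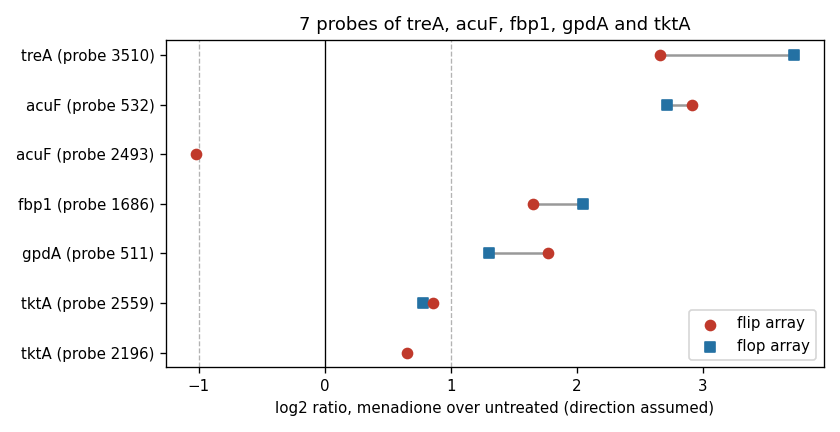
Log2 ratios of menadione over untreated (horizontal axis, direction assumed) for the 7 probes of treA, acuF, fbp1, gpdA and tktA, with circles for the flip array, squares for the flop array and dashed lines at 2-fold. All 5 probes with both values lie right of 0, and the acuF probe with a flip value alone lies at -1.02.

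The gluconeogenic gene acuF, which encodes the enzyme that converts oxaloacetate to phosphoenolpyruvate, had a log2 ratio of 2.91 on the flip and 2.71 on the flop array at its probe 532. Both arrays were far to the positive side and close to each other. The mean was 2.81 ± 0.14 (SD, n = 2), a 7.01-fold higher level with menadione. On the flip array 9 probes of 3049 had a higher ratio, and on the flop array 21 of 2267. By the 2-array mean, 11 probes of 2265 were higher, which places it at percentile 99.5.

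The other acuF probe, number 2493, was at -1.02 on the flip array and had no value on the flop array. It was therefore 2.03-fold lower with menadione where probe 532 was 7.52-fold higher on the same array. Of the 3049 flip ratios, 362 (11.9%) were at least 2-fold lower. The increase of acuF therefore rests on 1 of its 2 probes.

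The disagreement between the acuF probes was set against all pairs of probes annotated to 1 gene on the flip array, 659 pairs from 434 genes. The acuF pair differed by 3.93 log2 units, against a median of 0.75 over all pairs, and 9 pairs were farther apart. A pair with 1 probe at least 2-fold higher and the other at least 2-fold lower occurred 12 times (1.82% of pairs). The 2 tktA probes differed by 0.21, closer than 558 of the pairs. Over all pairs, 308 (46.7%) had opposite signs. Since 49.9% of the flip ratios of named probes were positive, unrelated probes would differ in sign about as often as not. Same-gene probes thus agreed in sign little more often than unrelated probes would. The annotation of a probe to a gene is therefore a limit on every ratio given here, and for treA, fbp1 and gpdA there was no other probe to set beside it. Which of the acuF probes reports the acuF transcript was not tested.

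The gluconeogenic gene fbp1, whose product removes a phosphate from fructose-1,6-bisphosphate, had a log2 ratio of 1.65 on the flip and 2.05 on the flop array. Its mean was 1.85 ± 0.28 (SD, n = 2), or 3.61-fold higher with menadione. Both values were above 2-fold, and 68 of 2265 probes had a higher mean (percentile 97.0). Its place was alike on the arrays, at percentile 96.5 of the flip ratios and 96.9 of the flop ratios.

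The gene gpdA, whose enzyme is shared by glycolysis and gluconeogenesis, had a log2 ratio of 1.77 on the flip and 1.30 on the flop array. The mean was 1.54 ± 0.33 (SD, n = 2), a 2.90-fold higher level. It stood higher among the flip ratios, at percentile 97.1, than among the flop ratios, at percentile 89.5. On the flop array 236 probes had a higher ratio, against 87 on the flip array.

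The trehalase gene treA had a log2 ratio of 2.66 on the flip and 3.72 on the flop array. The flip value is 6.32-fold and the flop value 13.2-fold, the widest gap between arrays among the 5 probes. The mean was 3.19 ± 0.75 (SD, n = 2), or 9.13-fold, and 7 of 2265 probes had a higher mean. The acid trehalase encoded by treA is known from conidia, the asexual spores, of A. nidulans, and from growth on trehalose as carbon source.

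Genes of asexual spore formation were therefore read beside treA. Of 22 listed genes of conidia and conidiophores, 14 were found on the array by symbol and 7 had a value on both arrays. Of these 7, 5 were negative on both and 2 positive on both, against 39.4% and 42.8% of all probes. Their mean ratios ran from -3.65 (flbC) to 0.775 (medA), with a median of -0.605. By limma with Benjamini-Hochberg adjustment over all probes, 1 rose (medA, adjusted p = 0.0474) and 2 fell (flbC at an adjusted p of 0.0440 and abaA at 0.0425), against 12.2% of all probes higher and 12.4% lower. These adjusted p-values lie near the threshold of 0.05, and without moderation 0 of all probes passed it. The spore maturation gene wetA was at 0.26 and 0.92, and the spore hydrophobin gene rodA at -0.68 and -0.53, neither past the threshold. The regulator flbB was at -0.39 and -0.25, which did not pass. Values on the flip array alone were 0.26 for flbD and -0.27 for fluG. The spore catalase gene catA was at -0.81 and -1.95 at its probe with both values, also not past the threshold. A further medA probe was at -1.73 and further catA probes at 0.13 and -0.42 among the flip ratios alone. No value on either array was present for brlA, yA, dewA, flbA and stuA. The list mixes spore genes (wetA, rodA and catA) with regulators such as flbB, so its counts do not measure the amount of conidia. The part of conidia in the treA ratio was not tested.

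The transketolase gene tktA had a log2 ratio of 0.86 on the flip and 0.78 on the flop array at probe 2559. Both values were positive and below 2-fold. The mean was 0.82 ± 0.06 (SD, n = 2), a 1.77-fold higher level, and 376 of 2265 probes had a higher mean (percentile 83.4). The other tktA probe, number 2196, was at 0.65 on the flip array alone, 1.57-fold higher and in the same direction.

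In the RefSeq annotation of strain FGSC A4, the span of tktA overlaps that of its neighbour ANIA_00687, whose probe was at 0.59 on the flip and 0.88 on the flop array. Signal of overlapping genes may not be separable on cDNA probes, and the tktA ratio carries that limit. On its other side tktA is next to facB, the activator gene of acetate utilisation, which was near 0 on both arrays, at -0.10 and -0.13. A neighbour of treA is the catalase gene cat1, which was at -0.28 on the flip and 1.28 on the flop array. The measured neighbour of acuF, ANIA_01919, was at 0.31 and -0.16. The neighbouring genes of fbp1 and gpdA had no probe assigned to them in the annotation used here. The look at neighbours was chosen after the values were seen.

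**Figure D2:**
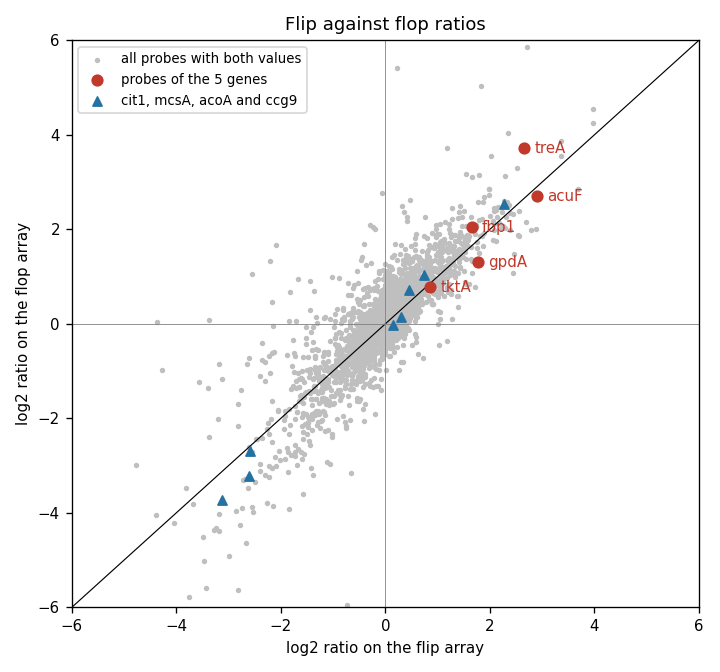
Log2 ratio on the flop array (vertical axis) against the flip array (horizontal axis) for all 2265 probes with both values, in grey, with the 5 probes of treA, acuF, fbp1, gpdA and tktA as labelled circles and those of cit1, mcsA, acoA and ccg9 as triangles. The line marks equal ratios: treA and fbp1 lie above it and gpdA, acuF and tktA below it.

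The order of the 5 ratios was not the same on the arrays. On the flip array acuF stood 0.25 above treA, and on the flop array treA stood 1.01 above acuF. Likewise gpdA stood 0.12 above fbp1 on the flip array, whereas fbp1 stood 0.75 above gpdA on the flop array. These were the 2 pairs, of 10, whose order turned between arrays. In both pairs the mean difference, 0.38 ± 0.89 for treA over acuF and 0.32 ± 0.62 for fbp1 over gpdA (SD, n = 2), was smaller than its spread. The ratio of acuF exceeded that of fbp1 by 1.26 on the flip and 0.66 on the flop array, a mean of 0.96 ± 0.42. The ratio of gpdA exceeded that of tktA by 0.91 and 0.52 on the same arrays, a mean of 0.72 ± 0.28. By the 5 probes with both values, treA and acuF stood highest, then fbp1 and gpdA, then tktA. That order was the same on both arrays as read here. It does not mark separate groups. On the flop array the gaps within the pairs (1.01 and 0.75) exceeded those of acuF over fbp1 (0.66) and gpdA over tktA (0.52). The place of acuF in the order rests on probe 532. With both acuF probes averaged on the flip array, acuF was at 0.945 there, below gpdA (1.77) and fbp1 (1.65). The order by the 5 probes also holds only in the assumed direction. With the sign of the flop array turned, the means were 0.235 for gpdA, 0.10 for acuF, 0.04 for tktA, -0.20 for fbp1 and -0.53 for treA.

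The arrays differed most for treA, by 1.06 log2 units, and least for tktA, by 0.08. Among all 2265 probes the median absolute difference between the arrays was 0.28. The treA difference lay at percentile 92.2 of that distribution, that of gpdA (0.47) at 69.3, that of fbp1 (0.40) at 63.4, that of acuF (0.20) at 37.9 and that of tktA at 16.0. The flop ratio was the larger for treA and fbp1 and the smaller for acuF, gpdA and tktA.

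**Figure D3:**
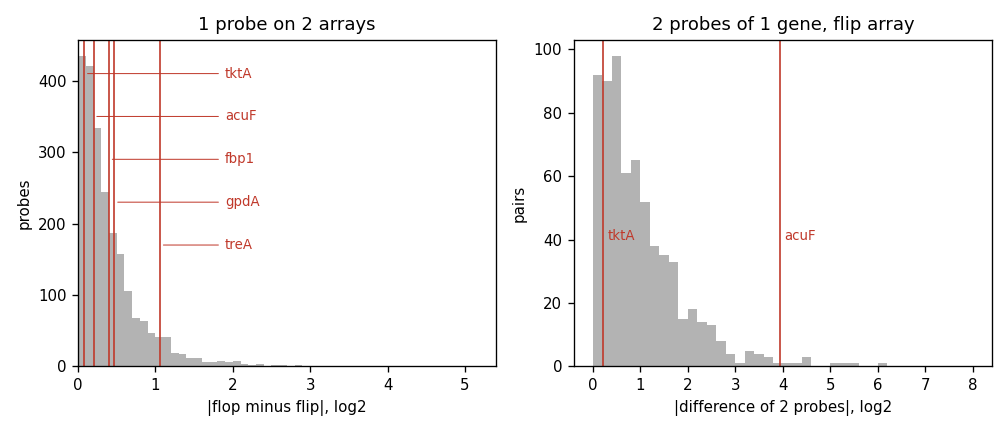
Left, numbers of probes (vertical axis) by the absolute difference between the 2 arrays in log2 units, with lines at the 5 probes of treA, acuF, fbp1, gpdA and tktA. Right, numbers of same-gene probe pairs by their absolute difference on the flip array, with lines at acuF (3.93) and tktA (0.21).

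Among probes of other genes with a symbol, those nearest to each of the 5 by Euclidean distance over the 2 array values were sought. The nearest to treA was acuF itself, at a distance of 1.04, and the nearest to acuF was ccg9 probe 2968 at 0.66, which was also the next nearest to treA at 1.24. In Neurospora crassa ccg-9 encodes a trehalose synthase. After ccg9, the nearest to acuF was ubaA at 0.74. The nearest to fbp1 were argB, an ornithine carbamoyltransferase gene, at 0.25 and the kinase gene imeB at 0.37. The nearest to gpdA were the cytochrome c oxidase subunit gene cox5b at 0.20 and the G protein subunit gene gpaB at 0.25. The nearest to tktA were mvp1 at 0.07 and gcy1 at 0.09. With 2 arrays this likeness is only that of a pair of numbers, and 4 to 15 probes of any name lay nearer than the nearest symbol.

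Most other genes of these pathways could not be followed by symbol. Of 121 symbols in 9 lists, 15 were on the array, the 5 genes above among them. The glycolysis, gluconeogenesis and pentose phosphate lists gave no further match by symbol, and the lists for pyruvate, acetate and ethanol and for glycogen gave 0. Only 304 of the 2064 named genes carried a symbol, and genes under a locus tag alone or a synonym were not searched. These counts therefore do not show that the other pathway genes were absent from the array. Of the other 10 genes, 8 had a probe with both values, 12 probes in all. By limma with Benjamini-Hochberg adjustment over all 2265 probes, 2 of these 12 rose and 3 fell at an adjusted p under 0.05, against 24.6% of all probes in either direction. The 2 that rose were a probe each of ccg9 and mcsA, and the 3 that fell were both cit1 probes and another mcsA probe. These counts are therefore of probes and not of separate genes. The median of the 12 probes was 0.10, against 0.035 (log2) over all probes. The lists were chosen with earlier results of these data known.

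**Figure D4:**
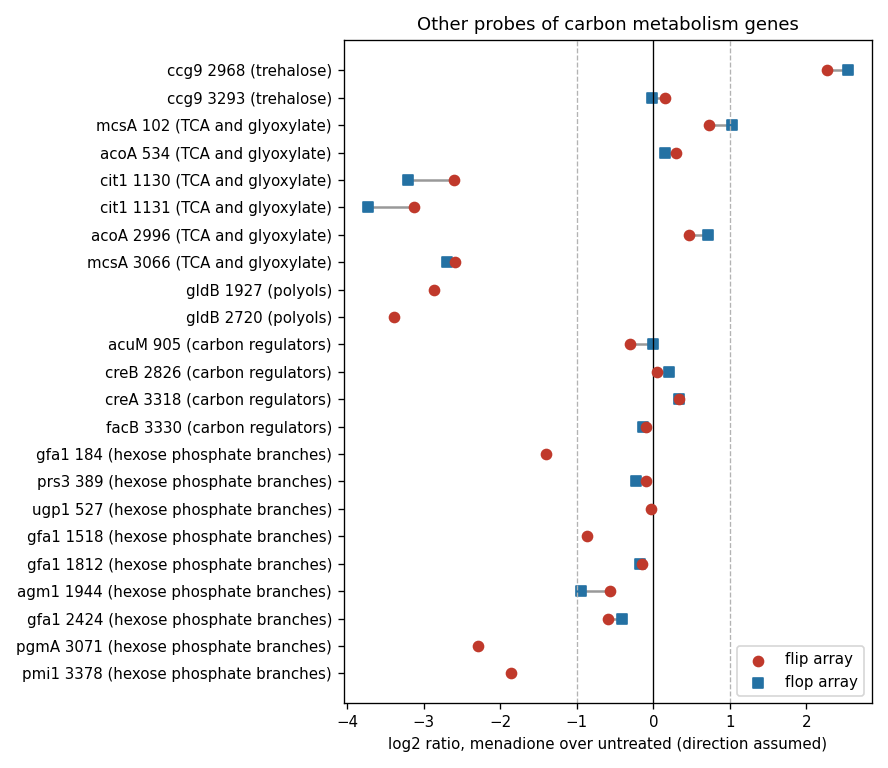
Log2 ratios (horizontal axis, direction assumed) of probes of other carbon metabolism genes with a value on at least 1 array, with circles for the flip array, squares for the flop array and dashed lines at 2-fold. The cit1 probes lie between -3.73 and -2.60, and the 4 regulators lie between -0.31 and 0.34.

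Next to treA in the trehalose list, ccg9 had a probe at 2.27 on the flip and 2.54 on the flop array, which rose by a mean of 2.41 ± 0.19 (SD, n = 2; limma adjusted p = 0.0351). Its other probe was near 0, at 0.15 and -0.02, so the increase of ccg9 rests on 1 of its 2 probes. By symbol, treA and ccg9 were the 2 genes of the trehalose list found on the array. By their means, the treA probe was at 9.13-fold and ccg9 probe 2968 at 5.30-fold. Since treA was chosen by its ratio, nothing is read from these probes lying on the same side of 0.

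Oxaloacetate is a substrate of both phosphoenolpyruvate carboxykinase and citrate synthase, and whether these enzymes draw on the same pool was not tested. Both cit1 probes (citrate synthase) fell, at -2.60 and -3.21 on the flip and flop arrays at probe 1130 and at -3.13 and -3.73 at probe 1131 (limma adjusted p = 0.0351 for each). The acuF probe 532 stood on the other side of 0 from the cit1 probes on both arrays, whereas acuF probe 2493, at -1.02 on the flip array, stood on the same side as cit1. Since acuF was chosen by its ratio, nothing is read from these sides, and a link between acuF and cit1 was not tested. The methylcitrate synthase gene mcsA had a probe that fell, at -2.59 and -2.70, and another that rose, at 0.73 and 1.03 (limma adjusted p = 0.0351 and 0.0499, and for the probe that rose 0.0528 with robust moderation and 0.0630 when probes on 1 array were included). The 2 measured probes of the aconitase gene acoA were at means of 0.23 and 0.59, not past the threshold, although the probe at 0.59 passed once the arrays were given the same SD (limma adjusted p = 0.0498).

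Of 10 listed carbon regulators 4 were found on the array by symbol, with means from -0.155 to 0.335. The gene acuM, which encodes an activator of gluconeogenic genes including acuF, was at -0.31 on the flip and 0 on the flop array. The carbon catabolite repressor gene creA was at 0.33 and 0.34, and creB, a deubiquitinase gene of the same system, at 0.05 and 0.21. With facB, 0 of these 4 passed the limma threshold, and 0 had an unadjusted p under 0.05, against 24.6% and 45.7% of all probes. With 4 probes, these counts do not show that the regulators did not differ. In the polyol list the glycerol dehydrogenase gene gldB had 2 flip ratios, -2.86 and -3.39, with no flop value, and glcA had no value at all.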

How the data were processed

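Per the labels and the series' design text, a GenePix 4000B scanner read the arrays, GenePix Pro 3.0 gave the ratios, and SAS for Windows (version 8) normalized them by LOESS within blocks, on chips of 3533 double-printed sequences. The deposited values, 1 column per array, were read as log2 ratios. The value farthest from 0, -5.94, exceeds in size the 4.82 that a log10 ratio of a 16-bit scanner can reach, and a natural logarithm is not settled. The sources used here give no rule for summarising spots, correcting background or leaving cells empty. Intensities were not used here, so signal over background is unknown and the number of arrays, 2, limits the precision.

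Probes were named by the platform annotation through gene IDs. All 2779 named probes matched RefSeq (assembly ASM1142v1), and 754 were unnamed here. Values were used as deposited. Ratios of the 5 genes got no test, only values, SDs over 2 arrays, percentiles (the share of probes with a lower value, ties counted at their middle) and a 2-fold count. For other genes, a log2 ratio of 0 was the null of a two-sided limma fit (version 3.58.1, R 4.3.3; lmFit, eBayes, Benjamini-Hochberg over 2265 probes, threshold 0.05). With 1 residual degree of freedom per probe these p-values lean on the prior variance. They also rest on a spread between arrays that may be technical alone. The text names all probes of the 5 genes and the listed pathway, conidia and conidiophore genes matched by symbol. It also names, for each of the 5, the 2 nearest probes with a symbol. The genes and lists were chosen with earlier results of these data known.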

Additional observations from a re-analysis of the deposited data

How the results depend on the processing

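The main limit is the direction of the flop column: with its sign turned, the mean log2 ratio was -0.53 for treA, -0.20 for fbp1, 0.04 for tktA, 0.10 for acuF and 0.235 for gpdA, the median of the 5 probes was 0.04 and their median percentile 66.5, 0 of the 5 and 4 of all probes were at least 2-fold the same way, and by limma 0 probes passed (2 of all probes and 0 of the 12 listed pathway probes at an unadjusted p under 0.05). Read as natural logarithms, the median was 2.67 and 663 probes were at least 2-fold on both arrays, against 412. On 1 array alone the median ran from 1.77 to 2.05, the median percentile from 96.9 to 97.3 and the count of all probes at least 2-fold from 525 to 671, and 4 of the 5 probes were at least 2-fold on either. A limit of 1.5-fold gave 785 probes and 3-fold 157. Averaging both acuF probes on the flip array, where alone both had a value, gave 0.945 there, below 2-fold, and a mean of 1.83 with the flop value of probe 532. Of 557 probes past the limma threshold, scaling both arrays to a common spread gave 901, an adjusted p under 0.10 gave 951 and including probes on 1 array gave 305. The 5 listed pathway probes past the threshold became 6 with common scaling or an adjusted p under 0.10, and 4 with robust moderation or with probes on 1 array included. Under limma an adjusted p of 0.01 gave 0 probes (1035 at an unadjusted p under 0.05), among them 0 of the listed pathway probes (6 unadjusted). Without moderation 0 passed (390 unadjusted), pathway probes included (3 unadjusted), and 28 probes with identical values were left out. The causes were not tested. Centring and common scaling left the ratio of each of the 5 genes within its SD. Each ratio already sets exposed against untreated RNA on the same array, and no further pairing was made. The limma counts need both arrays and have no value without either.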

Other observations

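Genes that lead hexose and pentose phosphates into sugar nucleotides, wall precursors and nucleotides were chosen from the array's symbols after the data were seen. Of their 11 probes, 4 had values on both arrays, and these came from 3 genes. All 4 were negative on both, with means from -0.76 to -0.155, against 39.4% of all probes negative on both. Because the genes were chosen after the data were seen, nothing is read from this share or from the p-values that follow. By limma 0 of the 4 passed an adjusted p of 0.05, against 24.6% of all probes, and agm1 (N-acetylglucosamine-phosphate mutase) at -0.57 and -0.95 and 1 probe of gfa1 (glutamine fructose-6-phosphate aminotransferase) at -0.59 and -0.41 had unadjusted p-values of 0.0227 and 0.0408. The other gfa1 probe with both values was at -0.15 and -0.17 (limma unadjusted p = 0.318), and 2 further gfa1 probes were at -1.40 and -0.86 among the flip ratios alone. On the flip array alone, the phosphoglucomutase gene pgmA was at -2.29 and the mannose-6-phosphate isomerase gene pmi1 at -1.86, whereas ugp1 was at -0.03. The ribose-phosphate pyrophosphokinase gene prs3 was at -0.09 and -0.22.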
